A study of Caenorhabditis remanei with 28 samples.

Results

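Replicates 7 and 8 of unstressed first-stage (L1) larvae of the nematode Caenorhabditis remanei were compared with replicates 3 to 6 of the same populations. The comparison took 12 of the 28 libraries of the series: 6 from the ancestor, strain PX443, and 6 from the control-selected population derived from it. Replicates 7 and 8 gave 4 libraries and replicates 3 to 6 gave 8. The members were chosen by population and replicate number, after earlier work on the same counts had shown that libraries numbered 7 and 8 lay near each other in expression. The difference in gene expression between these libraries is therefore described here and not tested as a finding. Tests are given for whether the effect differs between the populations and whether the libraries differ in depth and in the assignment of reads. Measures of how gene counts were spread over genes were tested as well. They come from the same gene counts as the split, so their tests are not independent of its choice. Depth is the total of those gene counts, and the shares of reads come from the same libraries. The tests of depth and read assignment are thus not fully separate from that choice either. The same genes were also read in the heat-selected population, whose libraries were not used to choose them. Earlier work had already placed heat replicates 7 and 8 near those of the ancestor and control, so the heat values are no independent support of the split.

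All larvae were raised at 20 °C on E. coli OP50. Embryos were isolated by bleaching, held for 20 h in buffer without food and, as hatched larvae, passed through a filter of 20 µm. Each library was made from poly-A RNA of about 100000 pooled larvae. The protocol also names 30 °C as an incubation temperature, while the names of the ancestor and control libraries carry the number 20. The labels do not say what the replicate number stands for, nor whether replicates came from separate cultures. The spread between libraries may thus be partly technical. Ancestor libraries are numbered 3 to 8, control and heat-selected libraries 1 to 8 and oxidative-selected libraries 1 to 6. The control is a single selected population.

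In Caenorhabditis nematodes, larvae that hatch without food halt at L1 with development suspended until they feed, and their transcripts turn over as the fast goes on. A pool of starved L1 larvae gives 1 average over whole animals, in which fewer cells of a type and less RNA per cell cannot be told apart. The count tables give genes by identifier, and none of the 25337 identifiers was paired with a gene name in the RefSeq annotation of the species. Functions, positions and sequences of the genes are thus not given, and the labelled stage could not be checked against marker genes.

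The 4 libraries numbered 7 and 8 lay towards one end of the second principal component of log2 CPM (counts brought to equal library totals, after scaling of the libraries). That component held 21.8% of the variance among the 12 libraries, and the replicate series accounted for 67.3% of it. Ancestor replicate 7 scored 49.1 and control replicate 8 scored 44.4. Control replicate 7 at 15.9 and ancestor replicate 8 at 0.615 lay nearer to replicates 3 to 6, which scored between -27.1 and 1.58. Ancestor replicate 5, at 1.58, lay above ancestor replicate 8, so the series did not separate fully on this axis. Among all 28 libraries, ancestor 8 and control 7 were each other's closest (r = 0.985 across genes), and ancestor 7 was closest to control 8 (r = 0.969). The closest library to control 8 was heat 8 (r = 0.980). Among the 12 libraries, pairs within replicates 7 and 8 had r from 0.943 to 0.985 (median 0.969). Pairs of 7 or 8 with 3 to 6 had r from 0.900 to 0.976 (median 0.955), and pairs within 3 to 6 from 0.930 to 0.983 (median 0.973). The ranges overlapped, so the 4 libraries did not form a tight group. The leading component held 39.6% of the variance, with 24.2% of it accounted for by the series. The third, with 8.68%, was the one on which population weighed most, at 74.7%.

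**Figure D1:**
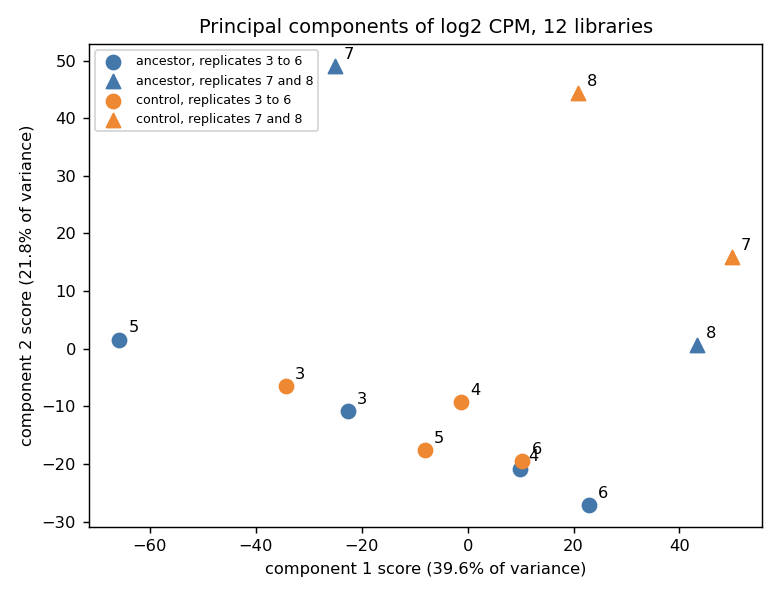
Scores of the 12 libraries on components 1 and 2 of log2 CPM (unitless), by population (colour) and replicate series (triangles for 7 and 8, circles for 3 to 6), with replicate numbers beside the points. Ancestor replicate 7, control replicate 8 and control replicate 7 lie above every circle on component 2, and ancestor replicate 8 (0.615) lies just below ancestor replicate 5 (1.58).

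Libraries numbered 7 and 8 differed from those numbered 3 to 6 in depth and in how reads were assigned. They held between 6718320 and 15755610 gene counts in the ancestor and between 10857578 and 15447168 in the control. Replicates 3 to 6 held between 4534564 and 6887393, and between 3270394 and 5214590. The deeper libraries rest on more reads: 3 counts equal 0.251 to 0.428 CPM in replicates 7 and 8, and 0.504 to 0.812 CPM in replicates 3 to 6. Over both populations the mean was 12194700 ± 4283190 (SD, n = 4) against 5072530 ± 1053710 (n = 8), a difference larger than the spread (two-sided exact permutation test within populations, p = 0.00889, adjusted p = 0.0207 over 7 measures). Ancestor replicate 7 (6718320) lay below ancestor replicate 6 (6887393) in depth, so the series overlapped there.

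Reads that fell on more than 1 gene made up 3.29% ± 0.222 of all reads in replicates 7 and 8 and 2.62% ± 0.253 in replicates 3 to 6. Reads aligned to more than 1 place made up 3.13% ± 0.384 and 2.53% ± 0.189. For both shares every library numbered 7 or 8 lay above every library numbered 3 to 6, and the exact permutation test gave p = 0.00444, the smallest it allows here (adjusted p = 0.0156). The share of reads outside genes was 13.4% ± 2.81 against 18.4% ± 3.39 (exact permutation test, p = 0.0444, adjusted p = 0.0622). The 100 most abundant genes took up 43.1% ± 2.75 of gene counts against 37.5% ± 3.44 (exact permutation test, p = 0.0311, adjusted p = 0.0544). For neither did the difference pass the adjusted threshold of 0.05. The share of unaligned reads was 23.2% ± 4.40 against 26.6% ± 6.32 (exact permutation test, adjusted p = 0.364). Every library was also thinned to 3270394 gene counts. Between 15229 and 16422 genes were then detected in replicates 7 and 8. In replicates 3 to 6 there were between 15568 and 17200 (adjusted p = 0.150, exact permutation test). The share in the 100 most abundant genes and the number of genes detected come from the gene counts that gave the split. Their tests are thus not independent of its choice, and the adjustment over all measures includes them. Depth is the total of those counts, and the shares of reads come from the same libraries. How far their tests depend on the choice of the split was not tested. Without control replicate 8, neither share of ambiguous or multiply aligned reads passed, nor did depth without ancestor replicate 8 or control replicate 7 or 8 (adjusted p = 0.0622 in each case, exact permutation test).

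**Figure D2:**
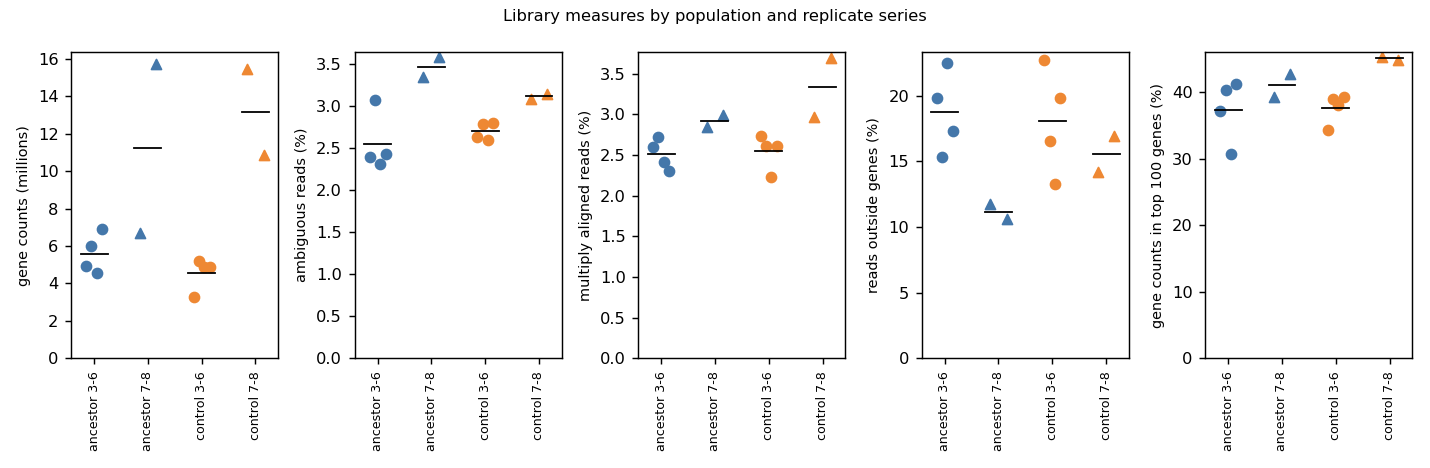
Gene counts, 3 shares of all reads in percent, and the percent of gene counts in the 100 most abundant genes, for each of the 12 libraries. Points are libraries, triangles are replicates 7 and 8, and black lines are means. All 4 triangles lie above all 8 circles for ambiguous reads (3.08% to 3.57% against 2.31% to 3.07%) and for multiply aligned reads (2.85% to 3.69% against 2.23% to 2.74%).

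With population as a covariate, 1498 of 12337 genes, or 12.1%, were called between replicates 7 and 8 and replicates 3 to 6 by edgeR's quasi-likelihood test, at a p below 0.05 after Benjamini-Hochberg adjustment. Of these, 763 genes (6.18%) were at a higher level in replicates 7 and 8 and 735 (5.96%) at a lower level. Most differences were under 2-fold: 191 of the genes at a higher level and 307 of those at a lower level differed by at least that much. The median log2 fold change was 0.78 among the former and -0.91 among the latter, against -0.01 over all genes tested. As the split was proposed from these same libraries, the counts describe its size and are no independent evidence of it. They also depended on single control libraries, with 945 genes called without control replicate 5, 701 without replicate 7 and 636 without replicate 8. When reads outside genes entered the fit as a covariate 397 genes were called, 111 higher and 286 lower. With unaligned reads in that place there were 2390, with 1474 of the 1498 among them. With log2 depth there were 2669, with only 434 of the 1498 among them, so most genes described here lost their call in that fit.

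The genes at a higher level were mostly abundant ones. They made up 2.24% of the 3085 least abundant genes and 12.3% of the 3084 most abundant. Genes at a lower level made up 3.70% of the least abundant and 6.74% of the most abundant genes, with their largest share, 7.98%, in the group just below the most abundant. Together the 763 genes took up 16.8% to 20.7% of gene counts in the 4 libraries numbered 7 and 8 and 10.3% to 13.3% in replicates 3 to 6. The 735 genes took up 1.89% to 2.57% and 4.43% to 6.76%. These ranges were set by the choice of the genes on the same libraries.

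Among genes with a mean log2 CPM of 1 or more and series that did not overlap in either population, the largest difference upwards was that of FL81_06237. Ancestor replicates 3 to 6 held 0.385, 0, 0 and 0.358 CPM of it, and replicates 7 and 8 held 1.71 and 3.94. Control replicates 3 to 6 held 0.271, 0.207, 0.213 and 0.234 CPM, and replicates 7 and 8 held 7.85 and 5.51. The gene was close to undetected in replicates 3 to 6, with 0 to 2 counts per library, and had 12 to 82 counts in replicates 7 and 8 (log2 fold change 4.32, SE 0.44).

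FL81_21354 was at 1.93, 1.12, 2.02 and 0.716 CPM in ancestor replicates 3 to 6, and at 32.7 and 7.03 in replicates 7 and 8. In the control it was at 1.62, 1.04, 1.06 and 0.703 CPM, and at 12.64 and 18.6. The groups lay far apart in both populations, and ancestor replicates 7 and 8 also differed widely from each other (joint log2 fold change 3.77, SE 0.36).

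The largest differences downwards were those of FL81_24498 and FL81_21381. Ancestor replicates 3 to 6 held 15.4, 28.1, 16.8 and 34.0 CPM of FL81_24498, against 0.285 and 0.754 in replicates 7 and 8. In the control the gene was already low in replicates 3 to 6, at 1.62, 1.86, 1.28 and 1.41 CPM, and stood at 0.192 and 0 CPM in replicates 7 and 8, which rest on 2 and 0 counts. Its log2 fold change was -5.06 (SE 0.46) jointly, -5.34 in the ancestor and -3.68 in the control.

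FL81_21381 started from like levels in both populations. It was at 11.6, 11.2, 18.8 and 8.23 CPM in ancestor replicates 3 to 6 and at 1.14 and 0.586 in replicates 7 and 8. In the control it was at 15.4, 16.99, 14.9 and 9.61 CPM, and at 0.670 and 1.56 (log2 fold change -3.81, SE 0.33). No library numbered 7 or 8 came near the lowest of replicates 3 to 6.

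Taken apart, the populations gave different numbers of calls. In the ancestor, with 2 libraries against 4, 120 genes or 0.973% were called, 44 higher (0.357%) and 76 lower (0.616%) in replicates 7 and 8. In the control 563 genes or 4.56% were called, 283 higher and 280 lower. Of the jointly called genes, 612 of the 763 higher and 496 of the 735 lower ones had a larger fold change in the control. Their median log2 fold changes were 0.64 and -0.81 in the ancestor and 0.92 and -1.01 in the control. Effects were also more widely spread in the control over all genes tested. With the extremes at both ends left out, log2 fold changes ran from -1.06 to 0.92 there and from -0.86 to 0.69 in the ancestor. Whether the larger fold changes of the called genes in the control go beyond this wider spread was not tested. Over the 12337 genes tested, the effects in the 2 populations, which share no library, had a correlation of 0.60 on the log2 scale. Genes are not independent replicates and the split was proposed from these libraries, so this describes the libraries.

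The fold changes of genes called in one population were also read in the other. They rest on other libraries, but both populations were tested in 1 fit with a shared estimate of the spread, so the calls are not separate. The split was also proposed because libraries numbered 7 and 8 lay near each other in expression. Agreement between the populations is therefore no independent support of it. Of the 44 genes called higher in the ancestor, 42 (95.5%) were higher in control replicates 7 and 8, against 47.2% of all genes. Of the 44, 31 were also called there, or 70.5% against 2.29% of all genes called higher. Of the 76 called lower, 74 (97.4%) were lower in the control, against 52.8% of all genes, and 52 were called, or 68.4% against 2.27%. The median log2 fold change of these genes in the control was 1.17 and -1.49. In the other direction, 265 of 283 genes called higher in the control were higher in the ancestor (93.6% against 49.85% of all genes). Of the 280 called lower, 270 were lower there (96.4% against 50.15%). Of the 283 and 280, 31 and 52 were called in the ancestor, or 10.95% and 18.6% against 0.357% and 0.616% of all genes. No gene was called in opposite directions. No overlap between the series in both populations, in the same direction, was seen for 1185 genes or 9.61% (4.67% higher and 4.94% lower in replicates 7 and 8), and in opposite directions for 28 genes or 0.227%. In the ancestor alone 15.6% of genes showed no overlap, and in the control alone 38.6%.

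The number of calls in the control ranged widely when 1 library was left out. It was 86 without control replicate 8, 112 without replicate 7, between 167 and 330 without replicate 5, 3, 6 or 4, 356 without ancestor replicate 3, 892 and 898 without ancestor replicate 8 or 7, and 1335 without ancestor replicate 5. The ancestor libraries enter through the shared estimate of the spread. In the ancestor the count was 74 without replicate 3 and 62 without replicate 7, and with replicate 7 alone against 3 to 6 the call of FL81_06237 was lost, as it was without replicate 8, with libraries thinned to equal depth and with reads outside genes as a covariate. Its log2 fold change in these 4 fits was 3.10, 3.10, 3.28 and 3.17, against 3.86 with all libraries, and the adjusted p was highest with the covariate (edgeR, 0.368).

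By the same rule as above, FL81_19154 was among the genes with the largest difference in the ancestor. It was at 6.74, 5.98, 4.87 and 5.19 CPM in replicates 3 to 6 and at 0.143 and 0.0837 in replicates 7 and 8, with 1 count in each of the latter. Its log2 fold change was -5.51 (SE 0.59) in the ancestor and -2.10 (SE 0.50) in the control. Levels were also lower outside replicates 7 and 8, at 1.28 to 2.81 CPM in control replicates 3 to 6 and 0.655 to 3.75 in the oxidative libraries. Heat replicates 1 and 2 held 2.13 and 0 CPM, and heat replicates 3 to 6 held 6.06 to 7.18. In heat replicates 7 and 8 its log2 fold change was -3.36 against 3 to 6 (edgeR adjusted p = 0.00141) and -1.03 against 1 and 2 (edgeR adjusted p = 0.417). FL81_08636 stood out in the control, where it was at 33.8, 28.6, 27.2 and 29.1 CPM in replicates 3 to 6 and at 0.766 and 1.32 in replicates 7 and 8. Its log2 fold change was -4.87 (SE 0.39) there and -2.83 (SE 0.34) in the ancestor. Control replicates 1 and 2 held only 2.82 and 5.75 CPM of FL81_08636 and heat replicates 1 to 6 held 2.99 to 5.14, while the oxidative libraries held 17.5 to 22.4. Low levels were thus also seen outside replicates 7 and 8. In heat larvae its difference between replicates 7 and 8 and 3 to 6 did not pass (edgeR adjusted p = 0.138). For neither gene did the difference between the populations pass the threshold (edgeR interaction test, adjusted p = 0.419 and 0.348), which does not show that their effects were equal.

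**Figure D3:**
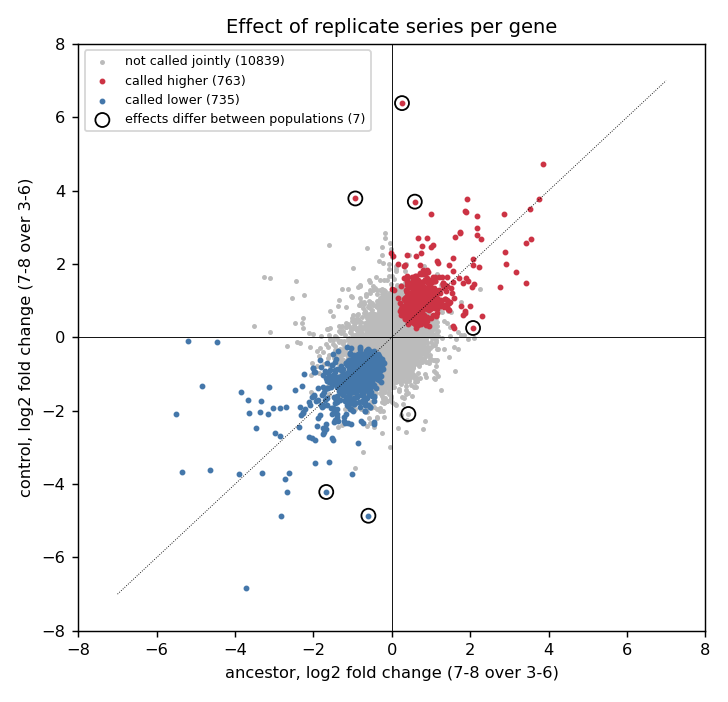
Log2 fold change of replicates 7 and 8 over 3 to 6 in the ancestor (x axis) and in the control (y axis) for 12337 genes, with the 763 and 735 genes called jointly in red and blue. Circles mark the 7 genes whose effects differed between the populations, and the dotted line is equality.

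The effect of the replicate series differed between ancestor and control in 7 genes, 0.0567% of those tested (edgeR interaction test, adjusted p under 0.05). In 4 of them (0.0324%) the log2 fold change was greater in the ancestor and in 3 (0.0243%) it was greater in the control. At an unadjusted p under 0.05 there were 377. In size, whatever its sign, the effect was larger in the control in all but 1 of the 7. The clearest was FL81_12212, which was at 98.8 and 119.8 CPM in control replicates 7 and 8 and at 0.812, 1.86, 0.638 and 1.64 CPM in control replicates 3 to 6. In the ancestor it was at 1.71 and 1.00 CPM in replicates 7 and 8 and at 0.771, 1.31, 0.504 and 1.79 in replicates 3 to 6. It was thus high in the control libraries numbered 7 and 8 and at the background of the other libraries in the ancestor ones, which held 12 counts each against 1032 and 1000 (difference of log2 fold changes -6.13, SE 0.64, edgeR adjusted p = 0.000870).

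FL81_22811 showed the same order. It was at 43.01 and 46.1 CPM in control replicates 7 and 8 against 1.35 to 5.39 in control replicates 3 to 6. In ancestor replicates 7 and 8 it was at 0.714 and 1.93 CPM, against 1.51 to 3.94 in replicates 3 to 6 (difference -4.72, SE 0.65, edgeR adjusted p = 0.0141). The gene was higher in the control libraries numbered 7 and 8 and not detectably so in the ancestor, where its log2 fold change was -0.93 (SE 0.50).

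A further pair of genes had a larger decrease in the control. FL81_20828 was at 16.8, 16.8, 21.1 and 18.8 CPM in control replicates 3 to 6 and at 0.862 and 0.359 in replicates 7 and 8. In the ancestor it was low throughout, at 1.18 to 2.51 CPM in replicates 3 to 6 and 0.714 and 1.67 in replicates 7 and 8 (difference 4.27, SE 0.62, edgeR adjusted p = 0.0141). Control replicates 1 and 2 held 3.22 and 2.47 CPM of FL81_20828, and the oxidative libraries 1.34 to 4.52. A level well below that of control replicates 3 to 6 was thus also seen outside replicates 7 and 8. FL81_04806 was at 452.5, 423, 429 and 416 CPM in control replicates 3 to 6 and at 32.0 and 15.5 in replicates 7 and 8. In the ancestor it was at 204 to 289 CPM in replicates 3 to 6 and at 65.9 and 84.2 in replicates 7 and 8 (difference 2.54, SE 0.36, edgeR adjusted p = 0.0141). Here both series differed between the populations without overlap. Replicates 3 to 6 were higher in the control than in the ancestor, and replicates 7 and 8 were lower. The oxidative libraries held 56.0 to 71.2 CPM of FL81_04806 and heat replicates 3 to 6 held 79.9 to 89.8. Control replicates 1 and 2 held 315 and 413 CPM, and heat replicates 1 and 2 held 256 and 213. Levels like those of ancestor replicates 7 and 8 were thus also seen outside replicates 7 and 8.

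The number of genes with differing effects was small and moved with single libraries. It was 1 without control replicate 5, 2 without control replicate 8 or ancestor replicate 3, 3 without ancestor replicate 8, 4 without ancestor replicate 4 or 6 or control replicate 3 or 6, 11 without ancestor replicate 7 and 20 without ancestor replicate 5. FL81_12212 passed in each of these fits. FL81_22811 did not pass without control replicate 5 or 8, and FL81_20828 and FL81_04806 without either of those or ancestor replicate 3 or 8. With all libraries thinned to equal depth FL81_20828 did not pass either (edgeR adjusted p = 0.543).

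The heat-selected population, also derived from PX443, has 8 libraries, 2 of them numbered 7 and 8, none of which entered the choice of genes above. Earlier work had also placed heat replicates 3 to 6 apart from the remaining heat libraries. Replicates 7 and 8 were therefore compared with 3 to 6 and with 1 and 2. The former comparison called 457 of 10862 genes or 4.21%, 138 higher and 319 lower, and the latter 1999 genes or 18.4%, 1055 higher (9.71%) and 944 lower (8.69%) (edgeR, adjusted p under 0.05). Heat replicates 1 and 2 held 1555582 and 1406684 gene counts against 8078381 and 9357212 in replicates 7 and 8, and the part of depth in that result was not tested. Without heat replicate 7 or 8 the counts were 153 and 159 against replicates 3 to 6, and 241 and 182 against 1 and 2. Against 1 and 2, 219 genes were called without replicate 1, 1277 without replicate 6 and 4333 without replicate 2. Against 3 to 6, 286 were called without replicate 6 and 848 and 858 without replicate 2 or 1.

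Most genes called in the ancestor and control differed in the same direction in heat larvae. Of the 763 genes called higher, 728 were tested in heat, and 684 of them (94.0%) were higher in heat replicates 7 and 8 than in 3 to 6, against 47.6% of all genes tested. The median log2 fold change of the 728 was 0.51, and 87 rose by the edgeR test, 12% against 1.27% of all genes. Of 687 genes called lower, 641 (93.3%) were lower in heat replicates 7 and 8, with a median of -0.67, and 165 fell, 24% against 2.94%. In contrast, 3 of the 728 were called lower and none of the 687 was called higher. Against heat replicates 1 and 2, 665 of the 728 were higher and 578 of the 687 lower (91.3% and 84.1%, against 44.1% and 55.9% of all genes), with medians of 0.92 and -0.62. In that comparison 4 genes of each list were called in the opposite direction. The shared calls made up 63.0% of the genes called higher and 51.7% of those called lower in heat replicates 7 and 8 against 3 to 6. Against replicates 1 and 2 they made up 31.1% and 16.8%. Among all 10862 genes tested in heat, 728 and 687 were on the lists called higher and lower jointly.

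Seen by library, the 763 genes took up 15.7% and 17.6% of gene counts in heat replicates 7 and 8 and 10.8% to 13.7% in heat replicates 1 to 6. The 735 genes took up 2.74% and 2.51%, against 4.14% to 5.95%. Neither range overlapped. In 397 of the 728 genes both heat replicates 7 and 8 lay above all 6 other heat libraries, 54.5% against 11.1% of all genes, and in 257 of the 687 both lay below them, 37.4% against 7.58%. The oxidative libraries, numbered 1 to 6, held 10.1% to 11.6% of the former genes and 5.93% to 7.02% of the latter. Control replicates 1 and 2, also left out of the choice, held 13.4% and 11.6%, and 4.63% and 5.45%. All of these lay outside the ranges of the 6 libraries numbered 7 and 8.

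**Figure D4:**
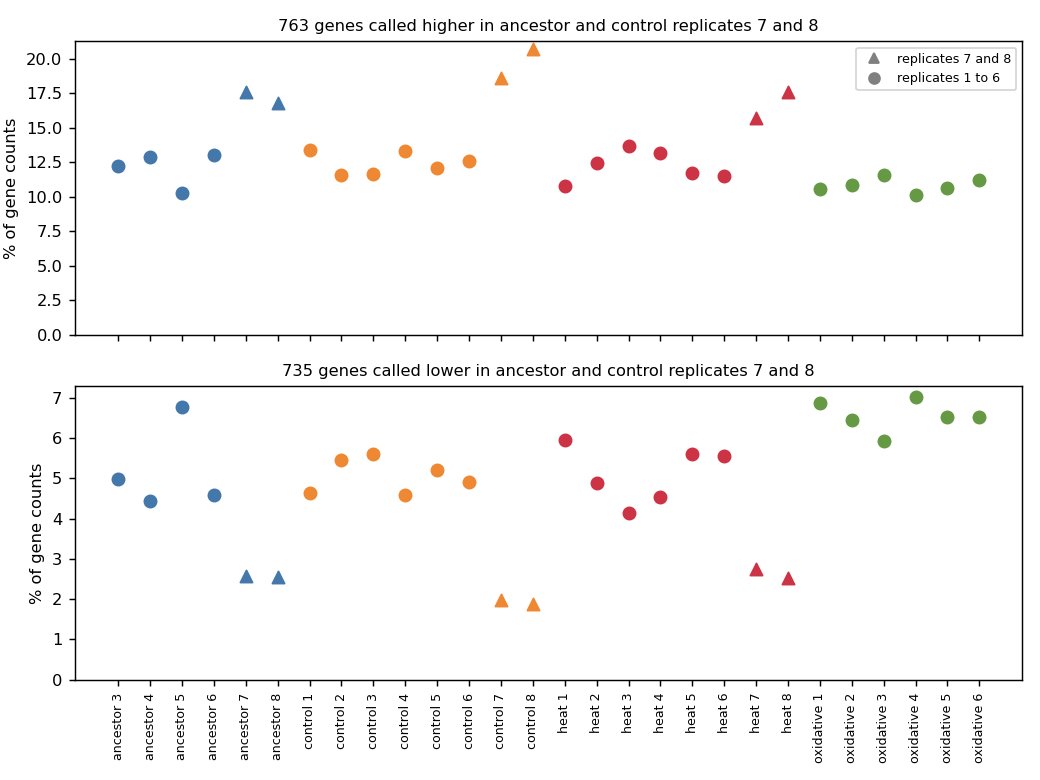
Percent of gene counts taken up by the 763 genes (upper panel) and the 735 genes (lower panel) called in ancestor and control replicates 7 and 8, in each of the 28 libraries. Points are single libraries, coloured by population, with triangles for replicates 7 and 8. The 6 triangles lie at 15.7% or above in the upper panel and at 2.74% or below in the lower panel, and the heat and oxidative libraries and control replicates 1 and 2 were not used to choose the genes.

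Single genes followed the same split in heat larvae to different degrees. FL81_06237 was at 4.45 and 5.00 CPM in heat replicates 7 and 8, at 0, 0, 0.626 and 0 in replicates 3 to 6 and at 0 in replicates 1 and 2. Its level in replicates 7 and 8 was at least 6.18-fold higher than in replicates 1 and 2, taking 3 counts over the pair as their upper limit (edgeR adjusted p = 0.0122, and 0.00252 against replicates 3 to 6). The call against replicates 1 and 2 was lost without heat replicate 1 or 7. FL81_21354 was at 14.1 and 18.6 CPM, against 0.755 to 1.67 in replicates 3 to 6 (log2 fold change 3.66, SE 0.38, edgeR adjusted p = 1.55e-05). Over all populations it reached 2.53 CPM at most in the 22 libraries numbered 1 to 6 and 7.03 CPM at least in the 6 numbered 7 and 8.

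Of the genes that were lower, FL81_24498 fell from between 3.13 and 8.32 CPM in heat replicates 3 to 6 to 0.921 and 0.128 in replicates 7 and 8 (-3.45, SE 0.67, edgeR adjusted p = 0.00526). In heat replicates 1 and 2 it was as low, at 0 and 0.633 CPM, as it was in control replicates 1 and 2, at 0 and 0.411, and in the oxidative libraries, at 0.226 to 0.942. A low level of this gene was thus seen outside replicates 7 and 8. FL81_21381 was at 1.07 and 3.08 CPM in heat replicates 7 and 8 and at 2.31 to 5.29 in 3 to 6, which overlap (-0.73, SE 0.52, edgeR adjusted p = 0.547).

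FL81_12212 and FL81_22811, high in control but not in ancestor replicates 7 and 8, were also high in heat replicates 7 and 8. FL81_12212 was at 89.2 and 131.9 CPM there and at 0.626 to 1.93 CPM in heat replicates 1 to 6 (6.46, SE 0.33 against replicates 3 to 6, edgeR adjusted p = 7.68e-09). FL81_22811 was at 25.2 and 32.0 CPM, against 0.427 to 1.93 (4.34, SE 0.34, edgeR adjusted p = 5.23e-07). In the 22 libraries numbered 1 to 6 of the 4 populations FL81_12212 did not exceed 2.01 CPM, and FL81_22811 did not exceed 5.39. The high level of both genes was thus found in 4 libraries, replicates 7 and 8 of the 2 selected populations that have them. For FL81_20828 and FL81_04806 no difference passed in heat larvae, where replicates 7 and 8 differed widely from each other, at 1.23 and 6.42 CPM and at 36.5 and 190.1 CPM (adjusted p = 0.574 and 0.711 against replicates 3 to 6, edgeR).

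**Figure D5:**
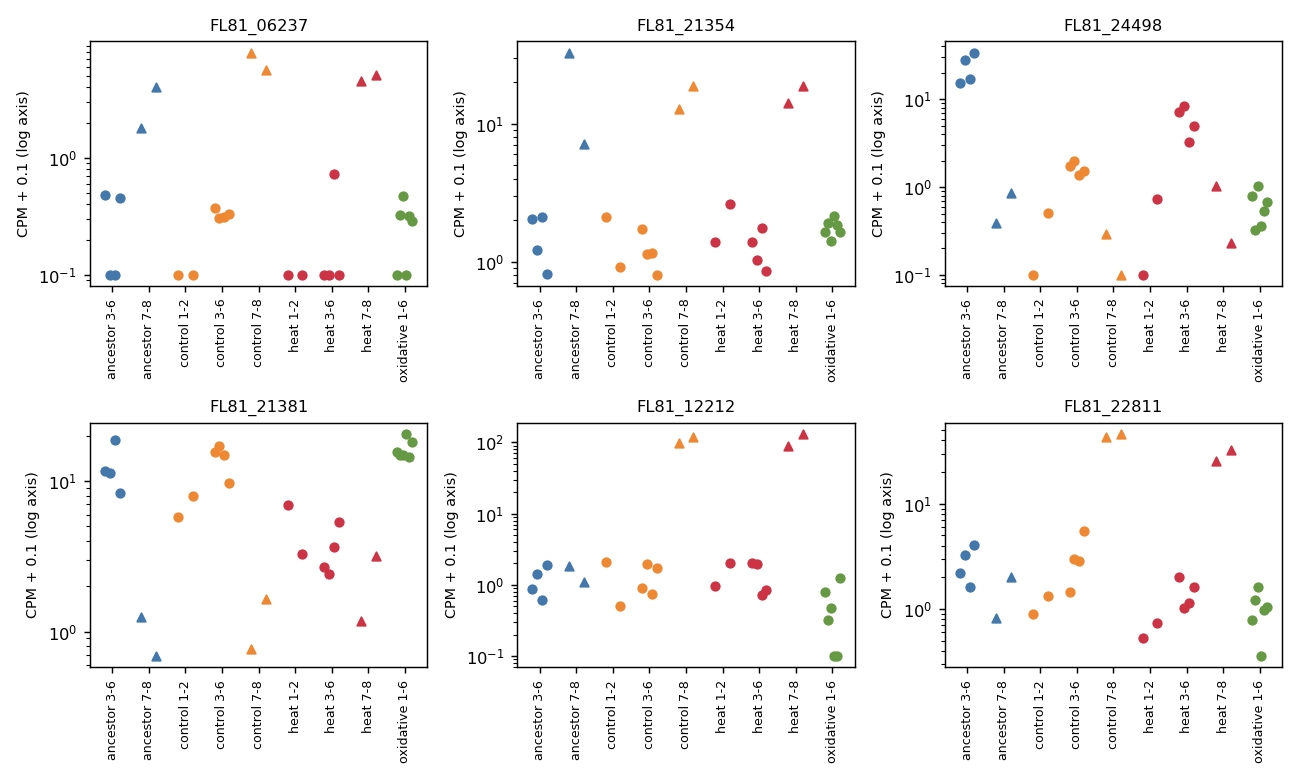
Level in CPM, plus 0.1, on a log axis of 6 genes in each of the 28 libraries, by population and replicate series, with triangles for replicates 7 and 8. FL81_06237 and FL81_21354 are high in all 6 libraries numbered 7 and 8, while FL81_12212 and FL81_22811 are high in those of the control and heat populations and low in the ancestor (0.714 to 1.93 CPM).

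The remaining genes named were those with the largest differences downwards in the heat comparisons. FL81_24900 was at 18.3 to 37.4 CPM in heat replicates 3 to 6 and at 0 in replicates 7 and 8, at least 125-fold lower (3 counts over the pair), but it was at 1.21 CPM or less in each control, ancestor and oxidative library and at 1.28 and 0 CPM in heat replicates 1 and 2. The gene was thus high in heat replicates 3 to 6 alone, and against replicates 1 and 2 its difference did not pass (edgeR adjusted p = 0.0632). FL81_04536 was at 0 in heat replicates 7 and 8 and at 0.924 to 4.15 CPM in replicates 3 to 6, at least 14.6-fold lower (edgeR adjusted p = 0.00134). In the control it was at 0 in replicates 7 and 8 as well and at 1.64 to 3.11 CPM in replicates 3 to 6. In the ancestor it was at 0.285 and 0.167 CPM, against 2.24 to 4.37, so all 6 libraries numbered 7 and 8 lay below all 22 others, of which the lowest held 0.924. That lowest value, in heat replicate 4, rests on 2 counts, and 3 counts equal 1.39 CPM there. Ancestor replicates 7 and 8 also held 2 counts each. FL81_05747 fell from 11.5 and 3.80 CPM in heat replicates 1 and 2 to 0.307 and 0 in replicates 7 and 8 (edgeR adjusted p = 0.00243), a call that was lost without heat replicate 1. It was at 2.14 CPM in ancestor replicate 7, above every ancestor library numbered 3 to 6, and so did not follow the replicate series across populations.

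Called genes were also set against their identifiers. Among 7743 pairs of tested genes with consecutive numbers, 56 pairs were both higher, 50 both lower and 42 opposite. After a gene called higher, the next was called higher in 11.4% of pairs, against 6.18% of all genes, and after a gene called lower, the next was lower in 11.6%, against 5.96%. Whether consecutive numbers mean neighbouring positions is not given in the sources used here.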

How the data were processed

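The authors deposited raw counts for each library, for 25337 gene identifiers and 5 summary rows, which stayed out of library sizes and tests and gave the shares of reads. Alignment was by GSNAP and counting by HTSeq, per the submitters' processing notes. Genome build, annotation and strand setting: not given in the sources used here. Overlapping genes and near-identical copies are therefore uncertain. No identifier matched the RefSeq table (assembly PX506), so planned gene lists could not be used.

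Genes were kept by filterByExpr (minimum count 10), scaled by TMM and tested with edgeR 4.0.16 in R 4.3.3 (quasi-likelihood, Benjamini-Hochberg over all genes). The joint fit held population and series, a fit with 4 groups gave each population and the interaction, and heat was fitted on its 8 libraries. Standard errors come from the fold change and F statistic. CPM were scaled over all 28 libraries. Principal components used a prior count of 2. Library measures were compared over all 225 splits within populations. Scripts were tested on simulated data. The 30 pairs of libraries within a population differed beyond counting noise (chi-square per degree of freedom 4.47 to 96.1). Values of 3 counts cover counting error only.

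The members, lists and tests were chosen with earlier results of these data known. Genes named are, per comparison, the 2 largest differences in each direction among genes with adjusted p under 0.05, mean log2 CPM of 1 or more and libraries that did not overlap (not asked of the interaction). Their values in other comparisons were added after they were seen.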

Additional observations from a re-analysis of the deposited data

Results flagged for a closer look

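The effect of the replicate series differed between ancestor and control for 4 named genes by the interaction test. The log2 fold change in the ancestor minus that in the control was -6.13 for FL81_12212, -4.72 for FL81_22811, 4.27 for FL81_20828 and 2.54 for FL81_04806.

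A check for a single library far from the others of its group (59 groups of 4 libraries) singled out 4 values, and chance alone singles out about 1 in 20. Ancestor replicate 4 had 3.07% of ambiguous reads, against 2.31% to 2.42% in the other ancestor libraries numbered 3 to 6. Ancestor replicate 6 held 0.179 CPM of FL81_24900, with 0 in the others, and 0 CPM of FL81_05747, against 0.336 to 0.385. Heat replicate 5 held 0.626 CPM of FL81_06237, with 0 in the other heat libraries numbered 3 to 6. The last 3 rest on 0 to 3 counts.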

How the results depend on the processing

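The joint count stayed within 1.5 times 1498 with RLE size factors, other filters on low counts, limma-voom, DESeq2, a robust fit, no population term, control replicates 1 and 2 added, and all libraries thinned to equal depth (1197 genes, chosen after seeing the data). Without a filter 300 genes were called in the ancestor, 1085 in the control and 44 in the interaction, and with DESeq2 267, 943 and 27. A fit of all 28 libraries gave 311, 1219 and 17. When reads outside genes entered as a covariate the joint count was 397, with 60 in the ancestor and 17 in the interaction. With unaligned reads in that place the joint and control counts were 2390 and 1014. With log2 depth the joint, ancestor, control and interaction counts were 2669, 2348, 3097 and 32, and held 434 of the 1498 joint, 114 of the 120 ancestor and 231 of the 563 control genes. They were 333, 220, 156 and 1 with replicate 7 alone against 3 to 6, and 635, 46, 319 and 17 with replicate 8 alone. The cause of these shifts was not tested.

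Leaving out 1 library gave 636 to 2085 genes jointly, 62 to 173 in the ancestor, 86 to 1335 in the control and 1 to 20 in the interaction. It gave 153 to 858 genes for heat replicates 7 and 8 against 3 to 6, and 182 to 4333 against 1 and 2. Where this left 1 library in a group, that library was assumed to vary like the others. Of the genes called jointly, 88.7% to 94.8% kept their direction in heat against replicates 3 to 6, and 76.3% to 92.7% against 1 and 2. Of the alternative values for the named genes, 500 kept the direction and the call, 26 kept the direction and lost the call, and 0 reversed. For 3 more DESeq2 gave no adjusted p.

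Replicate numbers were not taken to pair libraries across populations: deviations of same-numbered ancestor and control libraries had correlations of 0.292, 0.116, 0.0165 and 0.478 for numbers 3 to 6 and of -0.621 for 7 and 8. With 2 libraries in a group, the deviations of 7 and 8 mirror each other. Their correlations are therefore the same value by construction, and crossing the numbers turns it to 0.621. With the number as a random replicate block (limma-voom) 1826 genes were called jointly, 124 in the ancestor, 532 in the control and 6 in the interaction. The correlation within blocks was estimated at -0.0445 in the joint fit, and limma-voom without a block called 1662 genes jointly. A fixed replicate block left 3 in the interaction, and 25 with the numbers 7 and 8 crossed between populations, a fit chosen after seeing the data.

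Without population strata, the differences in reads outside genes (-5.05 percentage points) and in the share of the 100 most abundant genes (5.56) passed the threshold. The latter share comes from the gene counts that gave the split, so its test is not independent of that choice. Leaving out 1 library, the difference in depth ranged from 4863000 to 9381000 gene counts, in ambiguous reads from 0.604 to 0.749 points, in multiply aligned reads from 0.417 to 0.779, in reads outside genes from -5.85 to -4.27 and in the 100 most abundant genes from 4.46 to 6.42. In the shallowest of the 12 libraries 3 counts equal 0.812 CPM, which limits genes near that level.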
